A study of Homo sapiens with 6 samples.

Results

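Ribosome-bound mRNA of the hepatocellular carcinoma line HCCLM3 was compared with that of the related line MHCC97H, gene by gene. A gene entered the comparison when its level reached 1 RPKM (reads scaled to the length of the gene model and the size of the library) in at least 1 of the 2 libraries. Of the 19089 gene names with reads anywhere in the study 11383 did so. The study sequenced polyadenylated mRNA and ribosome-bound polyadenylated mRNA of Hep3B, HCCLM3 and MHCC97H, in 6 libraries, and the comparison used 2 of them, with the mRNA libraries of the same 2 lines set beside it. Each library was 1 pool, in equal amounts, of 3 separate cultures of its line, so every line and fraction had 1 library, no difference had a replicate check and no p-value was computed. HCCLM3 and MHCC97H were both grown in DMEM with 10% fetal bovine serum, penicillin/streptomycin and ciprofloxacin at 10 µg/mL, and the labels give the American Type Culture Collection as the source of the cells. They are human liver carcinoma lines known for metastasis in mice and derive from the same parental line. The deposited tables mark the fractions with the letters A and C only. C was read as the ribosome-bound fraction, which no label states outright.

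A ribosome-nascent chain complex (RNC) is a ribosome with its mRNA and the growing peptide still attached. mRNA recovered from such complexes (RNC-mRNA) is the part of a cell's mRNA that is being translated when the cells are lysed. Its level follows both how much of an mRNA the cell holds and how much of it is on ribosomes, which is why the mRNA libraries were read beside it.

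The gene tables held 141095635 reads for HCCLM3 RNC-mRNA and 144209109 for MHCC97H RNC-mRNA. At that depth 1 RPKM of a gene model of 3 kb stood for 442 and 452 reads. Exact 95% intervals are given for ratios of single genes, and they cover counting error only, not the variation between cultures or preparations. The keratins of simple epithelia were abundant in both lines, KRT8 at 1478 and 1447 RPKM in HCCLM3 and MHCC97H and KRT18 at 539 and 579. The hepatocyte transcription factor HNF4A (11.1 and 12.4 RPKM) was present in both. Of 9 markers of liver epithelium 5 reached 1 RPKM, and the secreted markers APOA1, APOB, TTR and SERPINA1 did not. Markers of other cell types were mostly under 1 RPKM in both lines: 1 of 10 stellate cell and fibroblast markers (LUM), 3 of 8 endothelial markers, 1 of 10 leukocyte markers (CD68) and 0 of 5 erythroid markers reached it. The endothelial markers were ESAM (42.8 and 33.6 RPKM) and, at least 2-fold lower in HCCLM3, PECAM1 (2.09 and 6.49) and KDR (0.419 and 1.36), while CDH5, VWF, TEK, CLEC4G and STAB2 stayed under 1 RPKM or had no line in the tables.

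The ribosome-bound mRNA of the lines was close for most genes and far apart for a few. Over the 11383 genes the median log2 ratio of HCCLM3 over MHCC97H, computed on RPKM + 0.1, was -0.0063, with an SD of 0.43 across genes. The ratio lay within 1.5-fold for 90.9% of the genes and within 2-fold for 97.0%. At least 4-fold higher in HCCLM3 were 37 genes (0.325% of those compared), and 42 (0.369%) were at least 4-fold lower. At 2-fold the counts were 157 (1.38%) and 179 (1.57%). The 4-fold counts fell to 11 and 11 with a pseudocount of 1 RPKM and to 13 and 14 among genes at 5 RPKM or more in the higher library. No natural gap set the 4-fold genes apart, as the values on either side of the line were 2.01 and 1.95 among the higher and -2.04 and -2.0 among the lower genes. The most abundant ribosome-bound mRNAs were the same 5 in both lines. S100A6, a calcium-binding protein, stood at 4148 and 4397 RPKM in HCCLM3 and MHCC97H, and FTL, the ferritin light chain, at 3616 and 2922. GAPDH, RPL8 and ACTB made up the rest.

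**Figure D1:**
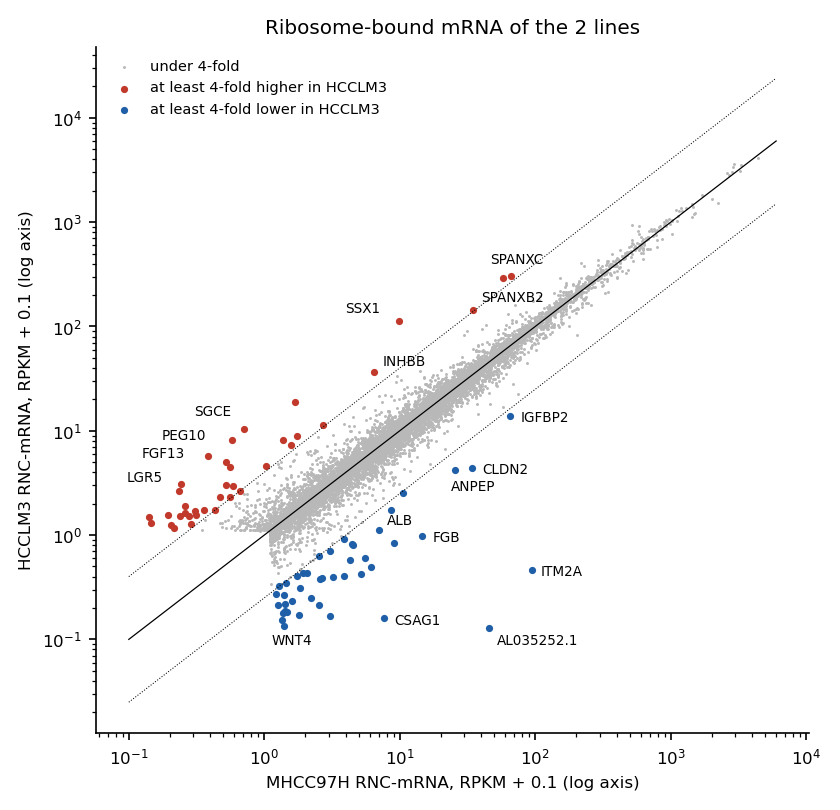
Ribosome-bound mRNA of every gene compared, with MHCC97H on the x axis and HCCLM3 on the y axis, both as RPKM + 0.1 on log axes. Each point is 1 gene, the solid line marks equal levels and the dotted lines 4-fold differences. The 37 genes at least 4-fold higher and the 42 at least 4-fold lower in HCCLM3 are coloured, and most of them lie under 5 RPKM on the higher axis.

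The genes far apart were mostly of low abundance. Of the 37 higher genes 24 stayed under 5 RPKM in HCCLM3, and of the 42 lower genes 28 stayed under 5 RPKM in MHCC97H. Even so, the fewest reads behind any of them in the higher library were 225 and 100. The 95% counting interval of the plain RPKM ratio lay wholly past 4-fold for all 37 higher genes and for 41 of the 42 lower ones. These intervals rest on the counts that chose the genes, and the scale used for the choice understates the fold change of low genes. They are therefore no separate support. Genes of the X chromosome made up 10 of the 35 higher genes that could be placed on a chromosome (28.6%) and 8 of 38 lower ones (21.1%). The X chromosome held 3.47% of all placed genes. Related copies of a gene family count as separate genes here, and GAGE12I, GAGE2D and GAGE2E were among the lower genes that could not be placed. Of the X-linked genes 9 of the 10 higher and 6 of the 8 lower were listed cancer-testis genes, whose expression is normally limited to the germ line and which many tumours express. The others were FGF13 among the higher and ITM2A and CLDN2 among the lower.

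The SSX and SPANX families of cancer-testis genes were higher in HCCLM3. SSX genes encode nuclear repressor proteins, and SPANX genes proteins of the sperm nucleus. SSX1 stood at 113 RPKM in HCCLM3 RNC-mRNA and 9.80 in MHCC97H, a ratio of 11.5 (95% interval 11 to 12.1). SSX6 followed at 18.8 and 1.59 RPKM and SSX9 at 4.95 and 0.426. SSX2, SSX4 and SSX5 were also at least 4-fold higher, so that all 6 SSX names that reached 1 RPKM were. Only SSX1 and SSX6 reached 1 RPKM in MHCC97H as well, so the filter itself favoured names that were higher in HCCLM3. RefSeq lists SSX6 and SSX9 as transcribed pseudogenes. Among the SPANX genes SPANXC stood at 303 and 66.2 RPKM, SPANXA1 at 289 and 58.2 and SPANXB2 at 144 and 34.5. SPANXD, at 8.67 and 2.39 RPKM, fell short of 4-fold. The copies of each family are alike in sequence, and the counting of reads that match several copies is not described in the labels. The split between copies is therefore uncertain. Sums over the family do not depend on that split unless reads were dropped. The 10 SSX names together held 27528 reads in HCCLM3 and 2489 in MHCC97H, a depth-scaled ratio of 11.3 (10.8 to 11.8). The 10 SPANX names held 57720 and 12621 reads, a ratio of 4.67 (4.58 to 4.76). Hep3B RNC-mRNA, from cells grown with 15% serum rather than 10%, held 49 reads of the SSX names and 15 of the SPANX names.

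The GAGE family and CSAG1, cancer-testis genes too, lay the other way. GAGE12J stood at 0.739 RPKM in HCCLM3 and 8.96 in MHCC97H, GAGE10 at 0.391 and 6.04, and GAGE12I at 0.326 and 5.09. With GAGE2D and GAGE2E, all 5 GAGE names past the filter were at least 4-fold lower in HCCLM3. Each of the 5 reached 1 RPKM in MHCC97H only, so the filter itself favoured names that were lower in HCCLM3. The 14 GAGE names together held 141 reads in HCCLM3 and 1975 in MHCC97H, 13.7-fold fewer by depth-scaled counts (11.6 to 16.4). CSAG1 had 9 reads in HCCLM3 and 1171 in MHCC97H, or 0.0588 and 7.50 RPKM, which is 127-fold lower (66.9 to 279). The MAGEA genes were split, for MAGEA12 (0.695 and 4.43 RPKM) and MAGEA2B (0.164 and 1.29) were at least 4-fold lower while the more abundant MAGEA3 (14 and 15.6) and MAGEA6 (23.6 and 26.0) were close. Over the list of cancer-testis genes other than MAGE, 20 of 90 reached 1 RPKM, and 10 of these were at least 2-fold higher and 7 at least 2-fold lower in HCCLM3. The shares past 2-fold over all genes compared were 1.38% higher and 1.57% lower. The median log2 ratio of the 20 was 1.12 in RNC-mRNA and 1.21 in mRNA, against -0.0063 in RNC-mRNA over all genes.

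The sequences at the transcription starts of 3 pairs of these genes are printed because they show how alike the copies that moved together are at their starts. They do not show how alike the transcripts are. Each is a RefSeq window of the GRCh38.p14 assembly, from 250 bases before to 50 bases after the start, 5′ to 3′ on the gene's strand, and capitals mark the longest run of bases that both members of a pair share. SSX4 (chrX:48383289-48383588, plus strand) and SSX2 (chrX:52707129-52707428, minus strand, 1 of 2 listed starts) were identical at 259 of 293 aligned bases (88.4%), and their shared run is 94 bases long.
SSX4: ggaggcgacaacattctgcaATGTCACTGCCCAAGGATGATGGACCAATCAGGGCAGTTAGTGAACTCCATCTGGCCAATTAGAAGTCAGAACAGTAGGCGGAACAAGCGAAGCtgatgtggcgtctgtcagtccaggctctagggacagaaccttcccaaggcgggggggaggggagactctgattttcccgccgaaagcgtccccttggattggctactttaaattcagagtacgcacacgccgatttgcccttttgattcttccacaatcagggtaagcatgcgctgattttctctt
SSX2: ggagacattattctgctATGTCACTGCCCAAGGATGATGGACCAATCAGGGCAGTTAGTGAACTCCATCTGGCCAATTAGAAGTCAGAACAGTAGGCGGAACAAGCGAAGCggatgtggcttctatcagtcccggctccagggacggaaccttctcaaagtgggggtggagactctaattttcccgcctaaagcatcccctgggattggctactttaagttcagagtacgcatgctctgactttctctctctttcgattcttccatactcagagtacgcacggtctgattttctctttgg
SPANXA1 (chrX:141584689-141584988, minus strand) and SPANXC (chrX:141242468-141242767, minus strand) were identical at 295 of 300 bases (98.3%), with a shared run of 174 bases.
SPANXA1: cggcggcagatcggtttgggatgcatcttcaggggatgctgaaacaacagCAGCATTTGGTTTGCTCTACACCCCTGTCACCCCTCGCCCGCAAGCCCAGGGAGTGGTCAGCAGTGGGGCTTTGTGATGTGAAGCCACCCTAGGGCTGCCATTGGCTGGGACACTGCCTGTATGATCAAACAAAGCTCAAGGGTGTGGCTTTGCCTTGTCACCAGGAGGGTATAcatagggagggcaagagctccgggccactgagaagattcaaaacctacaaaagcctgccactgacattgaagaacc
SPANXC: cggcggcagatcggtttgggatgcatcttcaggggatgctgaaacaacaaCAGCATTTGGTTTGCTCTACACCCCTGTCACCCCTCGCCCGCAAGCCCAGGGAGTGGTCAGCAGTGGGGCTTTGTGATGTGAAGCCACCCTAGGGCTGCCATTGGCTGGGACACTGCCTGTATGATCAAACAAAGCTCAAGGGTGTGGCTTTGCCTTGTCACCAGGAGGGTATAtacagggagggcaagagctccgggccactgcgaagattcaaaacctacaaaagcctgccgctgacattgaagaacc
GAGE10 (chrX:49303396-49303695, plus strand) and GAGE12J (chrX:49321787-49322086, plus strand) were identical at 268 of 298 aligned bases (89.9%), with a shared run of 60 bases.
GAGE10: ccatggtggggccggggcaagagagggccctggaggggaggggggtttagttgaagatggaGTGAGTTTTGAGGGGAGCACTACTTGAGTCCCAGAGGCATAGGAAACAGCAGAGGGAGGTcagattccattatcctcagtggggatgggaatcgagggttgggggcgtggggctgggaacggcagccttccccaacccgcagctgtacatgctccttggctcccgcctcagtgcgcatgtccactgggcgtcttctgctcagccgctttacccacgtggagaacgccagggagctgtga
GAGE12J: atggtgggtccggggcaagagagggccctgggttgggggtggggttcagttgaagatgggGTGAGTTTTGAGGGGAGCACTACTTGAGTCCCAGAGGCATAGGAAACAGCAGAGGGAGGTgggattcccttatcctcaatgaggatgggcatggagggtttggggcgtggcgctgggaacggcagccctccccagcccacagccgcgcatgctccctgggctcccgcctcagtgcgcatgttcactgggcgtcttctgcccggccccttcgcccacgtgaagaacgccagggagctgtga

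Outside the X-linked families, the genes highest in HCCLM3 over MHCC97H included growth factor, imprinted and WNT pathway genes. FGF13, an intracellular member of the fibroblast growth factor family, had the highest log2 ratio on the scale of RPKM + 0.1, with 5.68 RPKM in HCCLM3 and 0.285 in MHCC97H (log2 3.91). Its plain RPKM ratio was 19.9 (16.5 to 24.2), below that of LGR5, ACSS3 and PRRX1, whose levels in MHCC97H were lower than its own. SGCE and PEG10, adjacent genes on chromosome 7 that are expressed from the paternal copy, stood at 10.3 and 0.614 RPKM and at 8.08 and 0.482 RPKM. The RPKM ratio was 16.8 for both. Of 35 imprinted genes listed 14 reached 1 RPKM, and 4 of these were at least 2-fold higher and 0 at least 2-fold lower in HCCLM3. The other two were CDKN1C, an inhibitor of cyclin-dependent kinases (18.8 and 7.28 RPKM), and TFPI2, a protease inhibitor (2.63 and 1.09). Over all genes compared 1.38% were at least 2-fold higher and 1.57% lower. The median log2 ratio of the imprinted genes was 0.23 in RNC-mRNA and 0.24 in mRNA.

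In the WNT pathway, a receptor and inhibitors of signalling were higher in HCCLM3 and a ligand was lower. LGR5, a receptor for R-spondins and a target gene of the pathway, stood at 2.99 RPKM in HCCLM3 and 0.144 in MHCC97H, a ratio of 20.7 (17.0 to 25.6). NOTUM, a secreted enzyme that inactivates WNT proteins, stood at 8.10 and 1.27 RPKM, and NKD1, an inhibitor that acts on Dishevelled, at 11.3 and 2.60. The ligand WNT4 was at 0.0344 RPKM in HCCLM3, from 6 reads, and at 1.31 in MHCC97H. LGR4, a receptor related to LGR5, was lower at 5.69 against 11.7 RPKM. Other targets and negative regulators of the pathway lay under 2-fold, such as AXIN2 (43.7 and 27.4 RPKM), ZNRF3 (9.66 and 5.78) and RNF43 (13 and 9.63). CTNNB1, which encodes beta-catenin, stood at 104 and 60.3 RPKM and lies in a stretch of chromosome 3 that was shifted as a whole (described later). Of 65 listed genes 31 reached 1 RPKM, with 3 at least 2-fold higher, 2 at least 2-fold lower and a median log2 ratio of 0.076, beside 1.38% and 1.57% past 2-fold over all genes. AXIN2, ZNRF3, RNF43, LGR4 and CTNNB1 were chosen for naming after their values had been seen.

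Other genes at least 4-fold higher in HCCLM3 belonged to several signalling systems. INHBB, the beta-B subunit of activin and inhibin, was among the more abundant, at 36.6 RPKM in HCCLM3 and 6.39 in MHCC97H (ratio 5.73, interval 5.52 to 5.96). Among the 34 measured genes of the TGF-beta and BMP pathway it was 1 of 2 at least 2-fold higher, with BMP4 (31.9 and 15.0 RPKM), and 0 were at least 2-fold lower. The all-gene shares, 1.38% higher and 1.57% lower, stand beside this count and that of the invasion genes below. SMO, the signal transducer of the Hedgehog pathway, stood at 7.24 and 1.48 RPKM, and GPR161, a receptor in the same pathway, at 1.61 and 0.206. KISS1, which encodes the kisspeptin precursor and is known as a suppressor of metastasis, stood at 4.38 and 0.459 RPKM. It was the member furthest apart of 37 measured genes of invasion and matrix degradation, of which 1 was at least 2-fold higher and 1, MMP24 (7.17 and 15.7 RPKM), at least 2-fold lower. PRRX1, a transcription factor of mesenchymal cells, stood at 1.40 and 0.0403 RPKM. ACSS3, a mitochondrial acyl-CoA synthetase, stood at 1.22 and 0.0470. The chemokine receptor CCR1, the neurotrophin BDNF and the small heat shock protein HSPB6 (8.86 and 1.65 RPKM) were in the same class. So were the arachidonic acid epoxygenase CYP2J2, the glutathione transferase GSTO2 and the synaptic vesicle protein SV2A. The remaining genes of the class were PPP2R2B, CDCA7L, NKAIN3, KCNMB4, CDYL2, FSTL5, CHDH, AC002321.2, AC004466.1 and TVP23A, at 1.18 to 4.48 RPKM in HCCLM3.

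**Figure D2:**
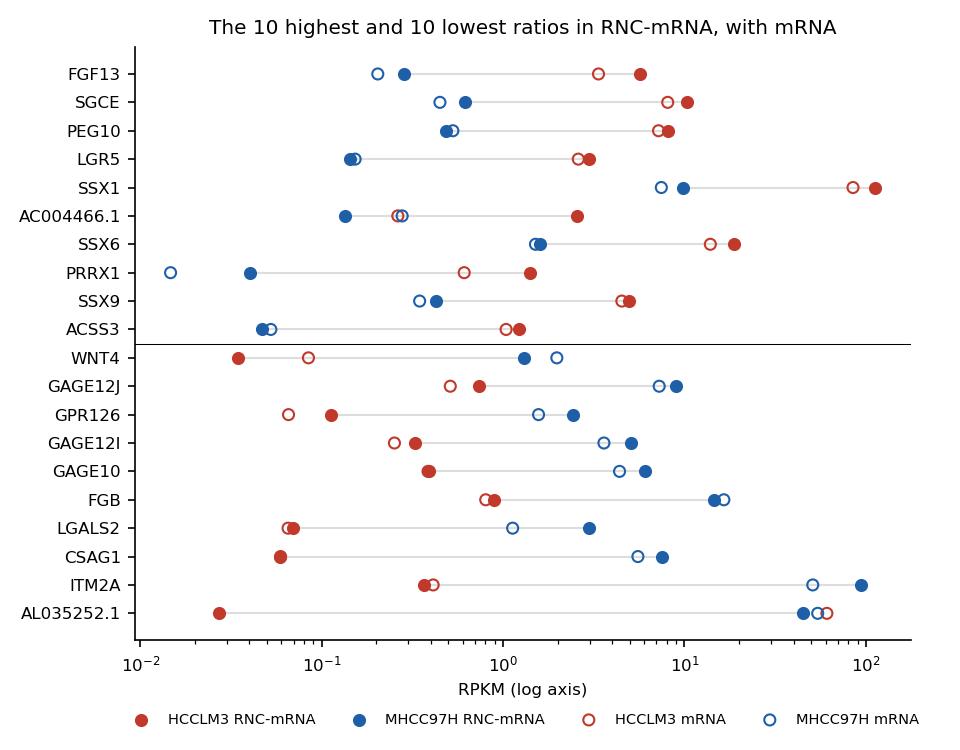
RPKM on a log axis of the 10 genes highest and the 10 lowest in HCCLM3 RNC-mRNA relative to MHCC97H. Filled circles are RNC-mRNA and open circles mRNA, red for HCCLM3 and blue for MHCC97H, with 1 library behind each circle. For 18 of the 20 genes the open circles lie on the same sides as the filled ones, and for AC004466.1 and AL035252.1 the mRNA circles nearly coincide.

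Lowest in HCCLM3 among annotated genes was ITM2A, which encodes a membrane protein of cartilage and muscle differentiation. It stood at 94.6 RPKM in MHCC97H, from 24188 reads, and at 0.367 in HCCLM3, from 92 reads, which is 257-fold lower (210 to 320). LGALS2, a galectin, stood at 0.0691 and 2.96 RPKM in HCCLM3 and MHCC97H, and GPR126, an adhesion receptor, at 0.113 and 2.42. IGFBP2, which binds insulin-like growth factors outside the cell, was the most abundant after ITM2A, at 13.9 and 65.4 RPKM. TMEM176A and TMEM176B, neighbouring genes for membrane proteins that are read in opposite directions, were low together, at 0.295 and 3.14 RPKM and at 0.308 and 3.78 RPKM.

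The RefSeq windows of TMEM176A (chr7:150800519-150800818, plus strand) and TMEM176B (chr7:150800315-150800614, minus strand, 1 of 2 listed starts) are printed because the genes are a divergent pair. Their starts are 405 bases apart on GRCh38.p14, and the windows have 96 bases in common, in capitals, each the reverse complement of the other.
TMEM176A: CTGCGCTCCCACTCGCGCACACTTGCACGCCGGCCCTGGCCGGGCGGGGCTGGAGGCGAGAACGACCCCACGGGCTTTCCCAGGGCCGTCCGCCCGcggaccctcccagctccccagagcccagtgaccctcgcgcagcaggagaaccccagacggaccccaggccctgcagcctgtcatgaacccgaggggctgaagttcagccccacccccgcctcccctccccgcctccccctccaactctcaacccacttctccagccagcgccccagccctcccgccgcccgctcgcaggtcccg
TMEM176B: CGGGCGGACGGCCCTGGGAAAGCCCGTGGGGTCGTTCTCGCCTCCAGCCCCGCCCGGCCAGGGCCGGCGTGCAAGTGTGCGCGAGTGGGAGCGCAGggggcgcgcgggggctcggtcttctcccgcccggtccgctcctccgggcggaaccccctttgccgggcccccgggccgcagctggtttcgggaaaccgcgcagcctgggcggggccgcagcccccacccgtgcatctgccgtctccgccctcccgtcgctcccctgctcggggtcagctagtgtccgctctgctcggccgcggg

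Genes of hepatocyte secretion lay on both sides, with the lowest ratios among the fibrinogen chains and albumin. Of 53 listed secreted proteins 22 reached 1 RPKM, and 3 of these were at least 2-fold higher and 6 at least 2-fold lower in HCCLM3. The all-gene shares, 1.38% and 1.57%, stand beside this count and those of the other hepatocyte lists. FGB, the fibrinogen beta chain, stood at 0.889 RPKM in HCCLM3 and 14.6 in MHCC97H, a 16.4-fold difference (14.4 to 18.6). The alpha chain FGA stood at 0.872 and 3.59 and the gamma chain FGG at 0.214 and 1.74. ALB, serum albumin, stood at 1.03 and 6.90. The other way lay APOC1, an apolipoprotein and the most abundant of the list's genes past 2-fold, at 90.6 and 31.5 RPKM. The list's median log2 ratio was -0.40 in RNC-mRNA and -0.083 in mRNA. Among hepatocyte transcription factors PROX1 (2.05 and 0.787 RPKM) and TBX3 (11 and 4.46) were at least 2-fold higher, and FOXA1 (7.85 and 18.5) and the bile acid receptor NR1H4 (1.23 and 2.77) at least 2-fold lower. Those 4 were the only ones past 2-fold of 19 measured. Of 19 measured genes of hepatocyte metabolism 4 were at least 2-fold lower and 1 at least 2-fold higher, and CYP2B6, a drug-metabolising enzyme outside those lists, stood at 0.504 and 5.45 RPKM.

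Epithelial junction genes that were far apart were lower in HCCLM3. CLDN2, a tight junction protein that forms a channel for cations, stood at 4.34 RPKM in HCCLM3 and 33.8 in MHCC97H (7.79-fold lower, 7.44 to 8.16). TJP3, a scaffold of tight junctions, stood at 0.281 and 2.49, and CGN, cingulin, at 2.66 and 6.22. VIL1, the villin of microvilli, stood at 3.20 and 8.30, and CDH1, E-cadherin, at 0.772 and 1.74. Of 32 measured genes of junctions and keratins these 5 were at least 2-fold lower and 0 at least 2-fold higher, with a median log2 ratio of -0.22 in RNC-mRNA and -0.076 in mRNA. Mesenchymal genes did not form a counterpart, as 3 of 25 were at least 2-fold higher (PRRX1, the collagen COL6A3 at 3.70 and 1.07 RPKM, and THBS1 at 26.4 and 12.9) and 4 at least 2-fold lower, with a median log2 ratio of -0.25. Among the 4 were TAGLN (0.391 and 1.19 RPKM), MYL9 (1.07 and 2.84) and CYR61 (3.24 and 6.75). The shares over all genes were 1.38% higher and 1.57% lower. Other surface and secreted proteins at least 4-fold lower in HCCLM3 were the aminopeptidase ANPEP (4.11 and 25.4 RPKM), the adhesion molecule CEACAM5 (2.42 and 10.4), the heparan sulfatase SULF2 (1.63 and 8.48), the gap junction protein GJB2 (0.728 and 4.35) and the integrin ITGA1 (0.251 and 1.35). The cystatins CST1 and CST4, PCDH1, MEGF6, ADAMTS10, TINAG, SCG5, PTP4A3, HOXB3, SDR16C5, PITPNM3, PLCXD3, TMCC3, FAM131B and PNMA6C completed the class, at 1.12 to 4.18 RPKM in MHCC97H.

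The same genes were apart in mRNA, in libraries that had not been used to choose them. Of the 37 genes at least 4-fold higher in RNC-mRNA 25 were at least 4-fold and 35 at least 2-fold higher in mRNA. Of the 42 lower genes 37 and 41 were lower by as much. Their median log2 ratios were 2.50 in RNC-mRNA and 2.23 in mRNA for the higher genes, and -2.85 and -2.57 for the lower ones. The background in mRNA was 26 genes at least 4-fold higher (0.222% of 11715) and 39 at least 4-fold lower (0.333%), and 143 (1.22%) and 157 (1.34%) at 2-fold. At 2-fold, 111 of the 157 higher and 129 of the 179 lower genes passed 2-fold the same way in mRNA, and 0 passed it the opposite way. The mRNA and RNC-mRNA of a line may come from the same cultures, so the fractions are not independent measurements of the line.

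In 3 of the 79 genes the lines were under 2-fold apart in mRNA. AL035252.1 had 1 read in HCCLM3 RNC-mRNA and 1690 in MHCC97H RNC-mRNA, 0.0272 and 45.1 RPKM, which is a ratio of 1655 with an interval of 297 to 65412. In mRNA the same name had 1974 reads in HCCLM3 and 1929 in MHCC97H, or 61.0 and 54.3 RPKM. AC004466.1 stood at 2.56 and 0.135 RPKM in RNC-mRNA and at 0.263 and 0.278 in mRNA. Both are clone-based names that matched no entry of the gene tables used here, so nothing is said of what they encode. TVP23A, related to a Golgi membrane protein of yeast, stood at 1.45 and 0.0939 RPKM in RNC-mRNA and at 0.366 and 0.278 in mRNA.

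Across all genes the fractions gave nearly the same line ratio. Among 6992 genes at 5 RPKM or more in all 4 libraries the log2 ratio of the lines had an SD of 0.28 in RNC-mRNA and 0.28 in mRNA, while the difference between both ratios had an SD of 0.14. It was under 0.5 for 99.2% of these genes. The median standard error of that difference from counting was 0.031, below the SD across genes. Among 10739 genes at 1 RPKM or more in all 4 libraries the RNC-mRNA ratio was at least 1 log2 unit above the mRNA ratio for 1 gene (0.00931%) and at least 1 below for 4 (0.0372%). FEM1A, a substrate receptor of a ubiquitin ligase, was the 1 above, with 18.1 RPKM in HCCLM3 and 14.2 in MHCC97H in RNC-mRNA but 6.44 and 10.3 in mRNA (difference 1.02, counting interval 0.94 to 1.09). LAMB3, the laminin beta-3 chain, was below, with 9.47 and 11.5 RPKM in RNC-mRNA but 26.2 and 15.2 in mRNA (-1.06, interval -1.12 to -1.0). The keratin gene KRT80 (-1.03) and the pro-apoptotic gene BIK (-1.0) were below too, as was AL627171.1, whose interval reached from -2.37 to -0.037. Next to FEM1A among genes at 5 RPKM in all 4 libraries came DEXI (difference 0.89), with 20.6 and 10.4 RPKM in RNC-mRNA and 9.49 and 8.89 in mRNA.

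**Figure D3:**
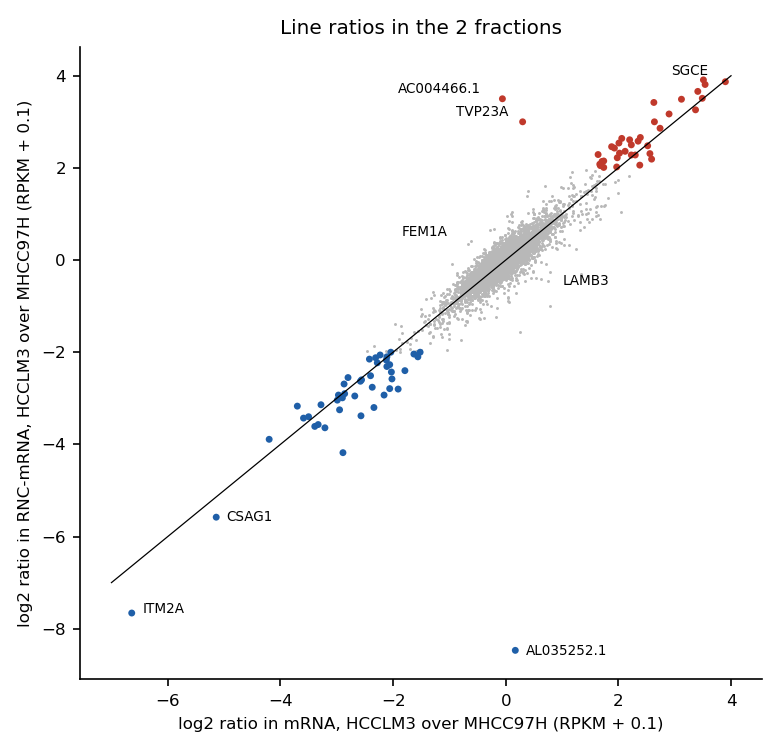
Log2 ratio of HCCLM3 over MHCC97H in mRNA (x axis) and in RNC-mRNA (y axis), both on RPKM + 0.1, for each gene compared. The line marks equal ratios, and genes at least 4-fold higher or lower in RNC-mRNA are red or blue. Most coloured genes lie near the line, and AL035252.1, AC004466.1 and TVP23A lie far from it at mRNA ratios of 0.17, -0.059 and 0.30.

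Smaller differences were not spread evenly over the genome. The 11060 genes that could be placed were put in chromosome order, and a running median over 25 neighbours was taken. A run needed at least 16 genes in a row shifted by at least 0.15 log2 units. Stretches shifted the same way were joined across gaps of up to 15 genes, so a run can hold unshifted parts. This gave 6 runs, and 4 of these held at least 60 genes. Other settings gave 4 to 8 runs, which held 92.0% to 99.9% of the genes of the long runs. This search was added after the data had been seen, and the runs were chosen on RNC-mRNA, so the mRNA values are the separate measurement. On chromosome 3 a run of 355 of 633 measured genes, from SUMF1 to ATP6V1A, had a median log2 ratio of 0.47 (quartiles 0.26 and 0.63), or 1.38-fold higher in HCCLM3. In mRNA its median was 0.42 and 94.4% of its genes were above 0, while the rest of the chromosome had a median of -0.0069 in RNC-mRNA. On chromosome 6 the first 332 of 563 measured genes, from DUSP22 to KIAA1586, had a median of -0.46 in RNC-mRNA and -0.47 in mRNA, where 90.7% were below 0. The rest of that chromosome had a median of -0.037.

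All 360 measured genes of chromosome 15 formed a run, with a median of -0.44 in RNC-mRNA and -0.42 in mRNA and 93.3% of genes below 0 in each. On chromosome 19 the first 135 of 798 measured genes, from PPAP2C to SH2D3A, had a median of -0.36 in RNC-mRNA and -0.46 in mRNA, where 95.6% were below 0. The remaining 663 genes had a median of 0.086. Shorter runs lay on chromosome 2 (25 genes, -0.18 in RNC-mRNA and -0.15 in mRNA) and chromosome 8 (41 genes, -0.20 and -0.18). Taken whole, the 20 measured chromosomes other than 3, 6 and 15 had medians between -0.11, on chromosome 13, and 0.052. DNA copy number was not analysed here, and its part in these runs was not tested.

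**Figure D4:**
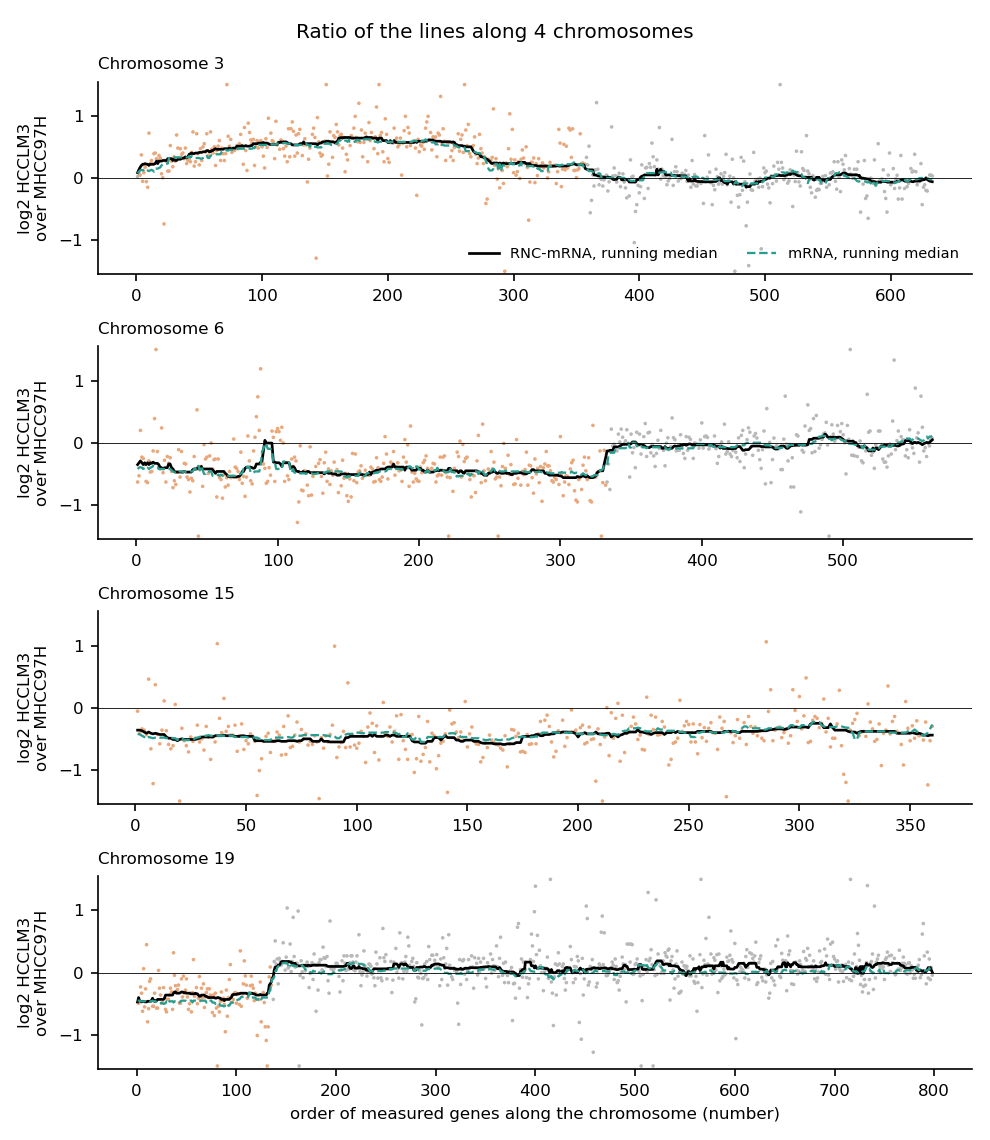
Log2 ratio of HCCLM3 over MHCC97H along 4 chromosomes, with measured genes in order on the x axis. Points are single genes in RNC-mRNA (orange inside a run of at least 60 genes, grey outside, values beyond 1.5 either way drawn at the edge), the black line is the running median over 25 genes in RNC-mRNA and the dashed line that in mRNA. Both lines lie above 0 through the run on chromosome 3 (median 0.47) and below it along chromosome 15 (median -0.44), and they return towards 0 at the ends of the runs on chromosomes 3, 6 and 19 and in a short stretch within the run on chromosome 6.

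The 4 long runs held 1182 genes, 10.7% of those placed. The runs were chosen on the RNC-mRNA ratios counted next, so shares above 10.7% follow in part from that choice. The runs held 609 of the 1514 genes lower by at least 0.3 log2 units (40.2%) and 263 of the 1278 higher by as much (20.6%). Of the genes at least 2-fold lower or higher they held 14% and 8.28%, and of the 4-fold genes 4 of 42 (ANPEP, SCG5, TINAG and TJP3) and 2 of 37 (CCR1 and CHDH). Outside the long runs the median log2 ratio was 0.0021 and the SD 0.40. The difference between the RNC-mRNA and mRNA ratios had the same SD inside and outside them, 0.17.

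Listed genes that every cell uses were under 2-fold apart, and the ribosomal protein genes that differed most lay largely in these runs. None of the 79 cytosolic ribosomal protein genes was 2-fold apart, and their log2 ratios ranged from -0.55 to 0.66 around a median of 0.045. Of all genes compared 1.38% were at least 2-fold higher and 1.57% lower. Among genes at 50 RPKM or more 1.03% were past 2-fold either way, so a count of 0 of 79 lies near the background. In RNC-mRNA, on which the runs were chosen, 12 of the 79 were beyond 0.3 either way, and 11 of these lay in long runs. Of the 11383 genes compared, 1278 were higher and 1514 lower by as much, and the long runs held 20.6% and 40.2% of these. In mRNA 10 were beyond 0.3, and all 10 lay in long runs, but the share over all genes in mRNA is not given here. The 6 in the chromosome 3 run (RPL14, RPL15, RPL24, RPL29, RPL32 and RPSA) were all above 0 in both fractions, with RPL29 at 928 RPKM in HCCLM3 and 586 in MHCC97H. The 8 on chromosomes 6, 15 and 19 were all below 0 in both, with RPS10 at 168 and 246 RPKM. Of all genes of the chromosome 3 run 94.6% were above 0 in RNC-mRNA. Below 0 were 91.6%, 93.3% and 93.3% of all genes in the runs on chromosomes 6, 15 and 19. The 65 ribosomal protein genes outside the runs ranged from -0.20 to 0.31. Genes of the large and of the small subunit were among those on either side.

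In other housekeeping lists some of the outlying genes lay in these runs and some did not. Of 43 proliferation genes 0 were 2-fold apart, beside 1.38% higher and 1.57% lower over all genes. Of the 9 beyond 0.3, 6 lay in a long run. CDC25A, a phosphatase that drives entry into S phase, lies on chromosome 3 and stood at 12.6 RPKM in HCCLM3 and 7.96 in MHCC97H. CCNB2, a mitotic cyclin, lies on chromosome 15 and stood at 30.7 and 45.8. Among 76 nuclear-encoded respiratory chain genes 4 of the 6 beyond 0.3 lay in long runs. UQCRC1 of complex III on chromosome 3 (93.5 and 59.7 RPKM) and COX5A of complex IV on chromosome 15 (103 and 146) were among the 4, while the lowest of the list, NDUFB9 of complex I on chromosome 8 (155 and 220, log2 -0.50), lay outside them. Of 47 translation factors 4 were beyond 0.3, and 2 of these lay in runs, EIF3J (chromosome 15, 30.2 and 45.8 RPKM) and EEF2 (chromosome 19, 548 and 679). The highest, EIF4G2 on chromosome 11 (237 and 165 RPKM, log2 0.52), lay outside them. Of 31 proteasome genes 3 were beyond 0.3, of which PSMA4 (chromosome 15, 40.7 and 57.2 RPKM) and PSMD6 (chromosome 3, 21.9 and 17.4) lay in runs and PSMA2 (chromosome 7, 1.11 and 1.39) did not. These counts are of RNC-mRNA, on which the runs were chosen. Over all genes beyond 0.3 in RNC-mRNA the long runs held 20.6% of the higher and 40.2% of the lower ones. In mRNA the genes beyond 0.3 that lay in long runs were 6 of 11 proliferation and 5 of 7 respiratory chain genes. For translation factors they were 2 of 3 and for proteasome genes 2 of 2. The share over all genes in mRNA is not given here, so these mRNA counts have no background beside them.

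**Figure D5:**
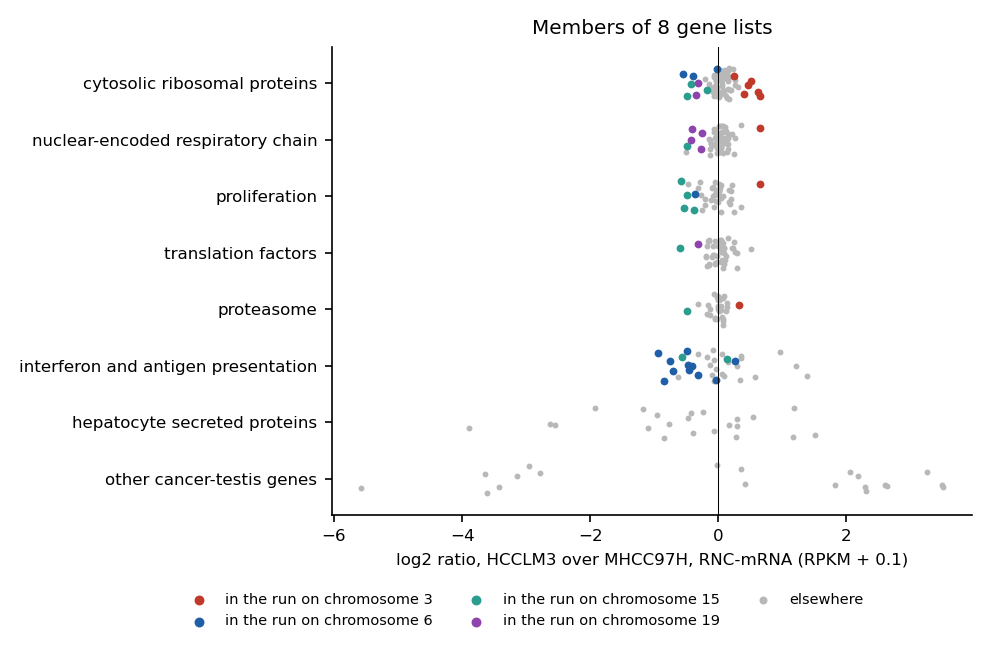
Log2 ratio of HCCLM3 over MHCC97H in RNC-mRNA for each measured member of 8 gene lists, coloured by the run of neighbours that holds the gene. Ribosomal protein, respiratory chain, proliferation, translation and proteasome genes stay within -0.60 and 0.66, with many but not all of the outermost points coloured, whereas secreted hepatocyte proteins and cancer-testis genes reach -3.89 and -5.58.

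Genes of antigen presentation that lay in the run on chromosome 6, which holds the major histocompatibility complex, were below 0 about as often as the other genes of that run. Of 11 listed genes there 10 were below 0 in RNC-mRNA and 9 in mRNA, beside 91.6% and 90.7% of all genes of the run, and HLA-B, a class I heavy chain, was the lowest at 6.37 RPKM in HCCLM3 and 12.3 in MHCC97H. The list's 21 members outside the runs lay on both sides, 12 above and 9 below 0. OAS2, an antiviral synthetase induced by interferon (6.28 and 2.35 RPKM), and UBE2L6, the ISG15-conjugating enzyme (26.3 and 11.2), were the 2 of 34 at least 2-fold higher, and 0 were at least 2-fold lower. Beside this stand 1.38% higher and 1.57% lower over all genes compared. Histone genes of the same run were mostly above 0. Of 16 measured histone genes in it 12 were above 0 in RNC-mRNA and 11 in mRNA, with HIST1H4H at 12.7 and 5.52 RPKM. Of the 16 outside the runs 13 were above 0 in RNC-mRNA and 15 in mRNA. Many histone mRNAs lack a poly(A) tail, so libraries of polyadenylated mRNA measure only part of them.

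Metabolic, stress and matrix lists differed in how many genes were past 2-fold, beside 1.38% higher and 1.57% lower over all genes compared. Of 40 measured glycolysis and hypoxia genes 1, the neuronal enolase ENO2 (32.6 RPKM in HCCLM3 and 15.0 in MHCC97H), was at least 2-fold higher. Of 50 NRF2 targets and aldo-keto reductases 0 were past 2-fold either way, nor were any of 17 S100 and annexin genes, of which S100P stood at 404 and 216 RPKM. In the integrated stress response PHGDH, the first enzyme of serine synthesis (9.95 and 4.22 RPKM), was at least 2-fold higher, and NUPR1, a stress-induced chromatin protein (16.7 and 58.1), and the peptide hormone ADM2 (1.17 and 2.93) were at least 2-fold lower, of 30 measured. Integrins, collagens and laminins counted 1 higher and 4 lower of 31, with LAMB1, the laminin beta-1 chain, at 18.0 and 46.4 RPKM. Several genes linked with metastasis were under 2-fold apart, such as MET, a receptor for hepatocyte growth factor (689 and 865 RPKM), S100A4 (3006 and 2819), the hyaluronan receptor CD44 (74.7 and 91.2), the metalloproteinase MMP7 (199 and 173) and osteopontin, encoded by SPP1 (376 and 228).

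The share of genes past 2-fold fell with the level and with the length of the gene model. It was 8.77% among genes whose higher level was 1 to 2 RPKM and 1.03% among those at 50 RPKM or more. With the genes in 5 classes of gene-model length it was 4.70% for the shortest and 1.54% for the longest. The median log2 ratio moved with length as well, from 0.041 in the shortest class to -0.053 in the longest, and in mRNA from 0.062 to -0.10.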

How the data were processed

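RNC-mRNA and mRNA of HCCLM3 and MHCC97H were analysed, 1 library each. The authors deposited 1 table a library, which gives the whole-number read count of every gene with reads. The same deposited tables give RPKM, the count scaled by gene-model length and by a library total of the authors' own (147499070 and 150607183 for the RNC-mRNA libraries of HCCLM3 and MHCC97H). Libraries were made with an NEBNext mRNA kit, per the labels' protocols. The submitters' processing notes name edgeR and hg19, with no role for edgeR. The aligner is not given in the sources used, nor is the counting of multiply mapped or antisense reads, so levels of gene copies, overlapping and antisense genes are uncertain.

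From these values log2 ratios of (RPKM + 0.1) were computed, with a gene without a line taken as 0, in Python 3.11.15 with pandas 2.3.3 and scipy 1.17.1. This scale understates the fold change of low genes. Genes that reached 1 RPKM in the higher library and a ratio of 4 or 2 were counted. Counting intervals were exact conditional binomial intervals of the 2 counts, and a log2 ratio of 1000 reads in each library had a 95% half-width of 0.13. On simulated counts for the 11383 genes the size rule recovered 100 of 100 genes planted in each direction. Simulated counts carry no measured variation between cultures or preparations, so this checks the rule and not the genes called here. edgeR 4.0.16 in R 4.3.3 gave scaling factors by TMM for an alternative and no test. Gene names were matched to RefSeq on GRCh38.p14 (16677 of 19089 to a current symbol, 18090 to a current or older one), which served for names, chromosomes, gene order and promoter windows only, since it differs from hg19. No coordinate was converted.

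The genes compared and the gene lists were chosen with earlier results of these data known. The text names the 10 highest and 10 lowest ratios, other genes 4-fold apart, up to 4 members a list with the largest ratios, the 5 highest and 5 lowest differences between fractions, the 5 most abundant genes and a panel of 23. Genes named outside this rule (members counted past a threshold, members of a family or run, genes beside them) were chosen after their values were seen. Genes of the Y chromosome and XIST were left out, and a few other results are not reported here.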

Additional observations from a re-analysis of the deposited data

Results flagged for a closer look

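The mesenchymal gene list had a median log2 ratio of HCCLM3 over MHCC97H of -0.25 in RNC-mRNA and 0.12 in mRNA, so the fractions fell on opposite sides of 0. The difference between the fractions was not tested, since each line and fraction had 1 library. Among its 25 measured members CAV1 (1680 and 2010 RPKM in RNC-mRNA) and TGFBI (45.7 and 54.4) had log2 ratios of -0.26 and -0.25 in RNC-mRNA against 0.25 and 0.12 in mRNA. PRRX1, COL6A3 and THBS1 were higher in HCCLM3 in both fractions. TAGLN (log2 -1.39 in RNC-mRNA and -1.27 in mRNA) and MYL9 (-1.32 and -0.69) were lower in both.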

How the results depend on the processing

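Counts past a fold depended most on the pseudocount and the filter. Rescaling shifted log2 ratios by amounts from -0.0052 (median ratio) to 0.0049 (upper quartile). List medians smaller than that, such as 0.0007 for cholesterol synthesis, therefore have no firm sign. With a pseudocount of 1 RPKM the genes at least 4-fold higher and lower numbered 11 and 11, those at 2-fold 87 and 88, and the genes with an RNC-mRNA ratio at least 1 above or below the mRNA ratio 0 and 1. With a filter at 5 RPKM in the higher library the counts were 13 and 14 at 4-fold and 69 and 64 at 2-fold. With no filter 253 and 316 genes were past 2-fold. At 5 RPKM in all 4 libraries 2 genes had an RNC-mRNA ratio at least 1 below the mRNA ratio. Under a pseudocount of 0.01 RPKM, rescaling to the median ratio, by TMM or to the upper quartile, or counting intervals wholly past the fold, these counts stayed within 1.5 times. The same held on leaving out gene families with similar copies or the runs of neighbours (these 2 chosen after seeing the data). Of the values of single named genes under the alternatives 174 moved and 1380 did not, and of the list medians 25 and 233. No paired analysis was possible because each line and fraction had 1 library. Depth limits the genes with few reads: counting alone gave a log2 ratio from 100 reads in each library an interval of 0.40 to either side.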

Other observations

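Gene groups not described so far are given with their counts past 2-fold in ribosome-bound mRNA, beside 1.38% higher and 1.57% lower over all genes compared. Among 30 measured growth factor receptors and ligands KDR, a receptor for vascular endothelial growth factor (0.419 RPKM in HCCLM3 and 1.36 in MHCC97H), and TGFA, a ligand of the EGF receptor (1.5 and 3.32), were at least 2-fold lower, and FGF13 was the 1 at least 2-fold higher. ERBB3 lay between, at 3.43 and 6.18. Of 31 chemokines, cytokines and acute phase genes the neutrophil chemokines CXCL5 (6.82 and 16.2 RPKM) and CXCL2 (2.09 and 4.70) were at least 2-fold lower, and the cytokine IL11 (1.26 and 0.547) was at least 2-fold higher. Of 39 immediate early genes DUSP2, a phosphatase of MAP kinases (14 and 6.53), was higher by that rule and CYR61, a matrix-associated signalling protein (3.24 and 6.75), was lower. CYR61 mRNA stood at 1.95 and 2.17 RPKM.

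In lipid storage and fatty acid synthesis 2 of 42 measured genes were at least 2-fold higher, ACSS3 and the fatty acid binding protein FABP3 (4.73 and 1.16 RPKM), and 1 was at least 2-fold lower, the glucose-responsive transcription factor MLXIPL (0.484 and 1.09). Of 12 metallothioneins listed 2 reached 1 RPKM. MT1X stood at 1.26 and 0.411 RPKM, and MT2A at 6.70 and 5.49. Of 36 chaperone and heat shock genes the small heat shock protein CRYAB (4.48 and 1.46) was the 1 past 2-fold, higher in HCCLM3. Of 27 p53 targets and cell cycle inhibitors CDKN1C alone was past 2-fold, and GDF15, a stress-induced cytokine, stood at 28.6 and 51 RPKM. Of 8 measured HOX genes HOXB3 (0.301 and 1.64) was at least 2-fold lower, while HOXA11 (13.6 and 9.04) and HOXA3 (46.2 and 35.4) were under 2-fold apart.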
